A study of Rattus norvegicus with 26 samples.

Results

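The comparison described here set the spinal cord of injured rats 1 week after transplantation (1 wpt) of human umbilical cord mesenchymal stem cells (+MSC-1w) against that of injured rats given phosphate-buffered saline as vehicle (+PBS-1w). Each group held 3 RNA sequencing libraries, and the 6 libraries were taken by their labels from 26 in 8 groups. The rats were adult wild type Sprague-Dawley females and carried the age label postnatal day 70. Both groups had a compression injury at T10 with an aneurysm clip of 60 g for 1 min, were injected intrathecally at day 7 after the injury, and gave a 5 mm segment centered at the lesion. The study's methods state that rats received cyclosporin A daily throughout, so immunosuppression is part of both groups. Intact cords and cords at the time of transplantation (sub-SCI) served as references, and the +MSC and +PBS cords at 2 and 4 wpt served for comparison over time. Of the 32883 genes in the table, 17990 passed an expression filter and were tested. The labels number the replicates and do not name the rats, and the study calls them biological replicates.

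After compression of the cord, neurons and oligodendrocytes at the lesion die, and microglia together with macrophages from the blood clear the debris. These phagocytes take up myelin and dead cells, digest them with lysosomal hydrolases, and mark and engulf material with the help of complement. Fibroblasts and reactive astrocytes build a scar around the lesion, and many of these cells divide in the weeks after injury. Mesenchymal stem cells of the umbilical cord are adherent stromal cells that are studied as a transplant because they secrete factors that act on immune cells and on injured tissue. A bulk segment mixes all these cells, so fewer cells of a type and less RNA per cell cannot be told apart.

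The total count was 33484347, 26021631 and 24462279 in the 3 +MSC-1w libraries and 32946100, 26296326 and 24391212 in the 3 +PBS-1w libraries (two-sided exact permutation test on log2 totals, p = 0.9, where 3 against 3 cannot go below 0.1). The libraries labelled replicate 1 shared a deviation across groups. The deviation of +MSC-1w replicate 1 from its group mean correlated at over 0.1 with that of replicate 1 in 6 of the 7 other groups (highest r 0.448), and that of +PBS-1w replicate 1 in 5 of 7 (highest r 0.281). No label names a batch for them, and its part in the results was not tested beyond the fits given below. Within +MSC-1w, replicate 1 was farther from replicates 2 and 3 (median absolute difference of a gene's log2 level 0.256 and 0.225) than they were from each other (0.175). Within +PBS-1w, replicates 1 and 2 were the closest pair (0.217) and replicate 3 stood apart from both (0.323 and 0.330), with the lowest level of neuron markers and the highest level of scar genes. Across the groups, +PBS-1w replicate 2 was 0.235 from +MSC-1w replicate 3 and 0.242 from +MSC-1w replicate 2. Both values were below its difference from +PBS-1w replicate 3, so the libraries did not separate by treatment on this measure. The median standard deviation of a gene's log2 level was 0.254 in +PBS-1w and 0.192 in +MSC-1w. The segments carried markers of neurons and astrocytes. The neuron marker Snap25 had 191, 194 and 129 CPM (read counts scaled to library size) in +PBS-1w and 661, 379 and 436 CPM in +MSC-1w, and the astrocyte marker Gfap had 8341, 9904 and 4018 CPM and 10022, 10196 and 9322 CPM.

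At 1 wpt, few genes differed between +MSC and +PBS beyond a strict threshold in the edgeR fit used here, while DESeq2 called more, as given below. The genes that fell included Ninj1, a gene of lytic cell death, the lysosomal protease gene Ctsl and the complement gene Cfp, and those that rose included Pygb, a gene of glycogen use. With edgeR (quasi-likelihood test, Benjamini-Hochberg adjustment), 2 genes were DEGs, for which the adjusted p had to be under 0.01 and the log2 fold change over 1 in size. Both were lower in +MSC-1w (0.0111% of the genes tested), and no gene was higher (0%). At an adjusted p under 0.05, 7 genes rose (0.0389%) and 11 fell (0.0611%). At an adjusted p under 0.1, a threshold added after the data were seen, 189 genes were higher (1.05%) and 141 lower (0.784%). At an unadjusted p under 0.05 the numbers were 1899 (10.6%) and 1320 (7.34%). The median log2 fold change of all genes tested was -0.00184, and 49.7% of them were above 0.

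**Figure D1:**
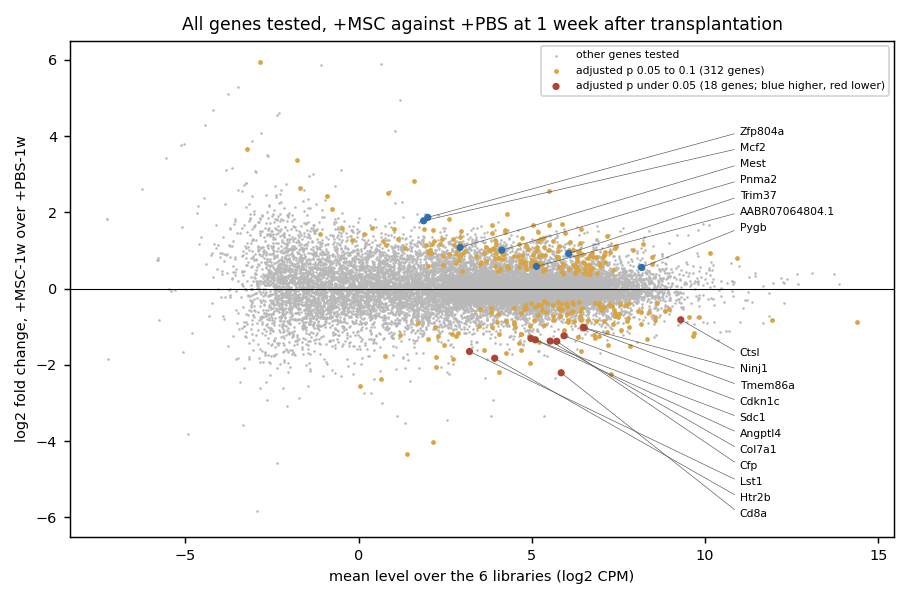
Log2 fold change of +MSC-1w over +PBS-1w against the mean level of each gene over the 6 libraries (log2 CPM), 1 point per gene. The 18 genes with an adjusted p under 0.05 are named, 7 above 0 in blue and 11 below 0 in red, and genes with an adjusted p between 0.05 and 0.1 are in yellow. Outside the plotted range lie 4 genes, and the 5 without a count in the 6 libraries are not drawn.

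The first DEG was Ninj1, which encodes ninjurin 1, the membrane protein that ruptures the plasma membrane in the last step of lytic cell death. Its level was 118, 127 and 114 CPM in +PBS-1w and 61.9, 55 and 60.8 CPM in +MSC-1w. The groups did not overlap, and the libraries within each group lay close together. Ninj1 fell by 1.02 on the log2 scale (SE 0.13, adjusted p = 0.00212, edgeR quasi-likelihood test, Benjamini-Hochberg adjusted). Intact cords held 22.3 ± 2.1 CPM (SD, n = 4) and sub-SCI cords 189 ± 12.7 CPM (SD, n = 3), so the +MSC-1w level lay between that of Intact and that of +PBS-1w.

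The other DEG was Htr2b, which encodes the serotonin receptor 2B, known from microglia, macrophages and smooth muscle. Its level was 26.8, 18.9 and 25.6 CPM in +PBS-1w and 6.64, 7.25 and 6.22 CPM in +MSC-1w. Every +MSC-1w library lay below every +PBS-1w library, and the lowest +PBS-1w library was replicate 2. Htr2b fell by 1.83 on the log2 scale (SE 0.27, adjusted p = 0.00795, same edgeR test). Intact cords held 0.66 ± 0.134 CPM (SD, n = 4), and sub-SCI cords 45.2 ± 11.4 CPM (SD, n = 3).

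The promoters of the 2 DEGs are shown because both genes fell together while their promoters differ in composition. The sequences are RefSeq windows of 300 bases on GRCr8, from 250 bases before to 50 after the gene's start, printed 5′ to 3′ on the gene's own strand. Capitals mark the GC box GGGCGG and the core GAGGAA that PU.1, the transcription factor of macrophages, can bind, each on either strand. The window of Ninj1 lies at chr17:15667982-15668281 and that of Htr2b at chr9:94204038-94204337, both on the minus strand.
Ninj1: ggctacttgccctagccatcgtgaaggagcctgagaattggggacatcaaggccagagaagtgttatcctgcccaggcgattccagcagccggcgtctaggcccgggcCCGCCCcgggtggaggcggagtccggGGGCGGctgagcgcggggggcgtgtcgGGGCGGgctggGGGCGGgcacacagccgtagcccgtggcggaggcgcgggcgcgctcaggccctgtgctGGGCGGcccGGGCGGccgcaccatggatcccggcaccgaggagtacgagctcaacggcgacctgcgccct
Htr2b: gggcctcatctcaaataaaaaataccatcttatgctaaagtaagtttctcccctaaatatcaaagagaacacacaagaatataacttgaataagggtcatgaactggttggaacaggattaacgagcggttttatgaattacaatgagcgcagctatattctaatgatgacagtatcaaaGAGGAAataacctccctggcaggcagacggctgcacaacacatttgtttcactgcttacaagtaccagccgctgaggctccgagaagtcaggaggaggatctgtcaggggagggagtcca
The Ninj1 window held 73.3% G and C and 6 matches of GGGCGG, with no match of GAGGAA. The Htr2b window held 43.3% G and C and 1 match of GAGGAA, with no match of GGGCGG. The median over 33469 RefSeq promoters was 51.7% G and C, and 33.1% of them held GGGCGG and 27.6% GAGGAA. The AP-1 motif TGANTCA was in neither window and in 7.33% of all promoters. These matches are a description of the letters in the windows.

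The other 9 genes that fell at an adjusted p under 0.05 included genes of macrophages, matrix and lipid handling. Ctsl encodes cathepsin L, a protease of the lysosome, and had 812, 758 and 838 CPM in +PBS-1w and 419, 449 and 500.0 CPM in +MSC-1w (log2 fold change -0.82, SE 0.14). Cfp encodes properdin, which stabilises the alternative pathway of complement, and had 86.5, 95.1 and 47.1 CPM and 27.7, 33.5 and 26.7 CPM (-1.38, SE 0.23). The leukocyte gene Lst1 had 19.9, 8.92 and 13.1 CPM and 5.35, 3.39 and 4.61 CPM (-1.65, SE 0.31). None of these 3 genes overlapped between the groups, and replicate 3 of +PBS-1w was the lowest control for Cfp while replicate 2 was the lowest for Lst1. Cd8a encodes the CD8 alpha chain, which cytotoxic T cells carry and, in rats, some macrophages too. It had 57.6, 153 and 72.8 CPM in +PBS-1w and 14.1, 17.6 and 29.9 CPM in +MSC-1w (-2.21, SE 0.41), with replicate 2 the highest control. The T cell receptor component Cd3d stood at 0.803, 2.01 and 1.52 CPM and 0.631, 0.255 and 1.46 CPM in the same libraries, with overlapping groups.

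Col7a1, the collagen of anchoring fibrils, had 55, 71.3 and 74.2 CPM in +PBS-1w and 22, 27 and 28.2 CPM in +MSC-1w (log2 fold change -1.38, SE 0.22). The cell surface proteoglycan gene Sdc1, syndecan 1, had 51, 46.2 and 37.3 CPM and 18.4, 18.8 and 17.3 CPM (-1.31, SE 0.25). For Angptl4, which encodes a secreted inhibitor of lipoprotein lipase, the values were 46.5, 52.7 and 48.5 CPM and 18.7, 19.2 and 20.4 CPM (-1.34, SE 0.24). The libraries of each group lay close together for Angptl4. Tmem86a, a hydrolase of ether lipids, had 128, 115 and 124 CPM and 58.2, 53.2 and 68.8 CPM (-1.03, SE 0.17). Cdkn1c encodes an inhibitor of cyclin-dependent kinases and had 66.5, 117 and 72.8 CPM and 33, 42.5 and 33.4 CPM (-1.24, SE 0.23). Its mean in sub-SCI was 50.8 ± 19.6 CPM (SD, n = 3) and in Intact 45.8 ± 5.75 CPM (SD, n = 4), so for this gene +PBS-1w stood above both references. For these 9 genes the adjusted p lay between 0.0144 and 0.0347 by the same edgeR test.

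The 7 genes that rose at an adjusted p under 0.05 had low to moderate levels, apart from Pygb. Pygb encodes the brain form of glycogen phosphorylase, which releases glucose from glycogen, and had 262, 231 and 207 CPM in +PBS-1w and 359.9, 343 and 326 CPM in +MSC-1w (log2 fold change 0.56, SE 0.10). Trim37, a ubiquitin ligase gene, had 50, 45.7 and 43 CPM and 98.3, 84.8 and 79.8 CPM (0.92, SE 0.17). Pnma2, which encodes a neuronal antigen, had 13.1, 13 and 8.89 CPM and 22, 23.5 and 24.9 CPM (1.01, SE 0.19). In each of these genes all 3 +MSC-1w libraries lay above all 3 +PBS-1w libraries. The imprinted gene Mest had 5.68, 5.33 and 3.68 CPM and 10.9, 9.48 and 10.8 CPM (1.08, SE 0.21). The largest increases belonged to Zfp804a, a zinc finger gene, with 1.69, 2.72 and 0.721 CPM and 8.05, 5.29 and 5.47 CPM (1.87, SE 0.35), and to Mcf2, a guanine nucleotide exchange factor gene, with 2.02, 2.09 and 0.841 CPM and 6.34, 5.21 and 5.55 CPM (1.78, SE 0.35). Replicate 3 of +PBS-1w was the lowest library for both. The unnamed gene AABR07064804.1 had 29.1, 28.9 and 26.3 CPM and 42.5, 42.7 and 41.1 CPM (0.58, SE 0.10). For these 7 genes the adjusted p lay between 0.0297 and 0.0422 (edgeR quasi-likelihood test, Benjamini-Hochberg adjusted).

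**Figure D2:**
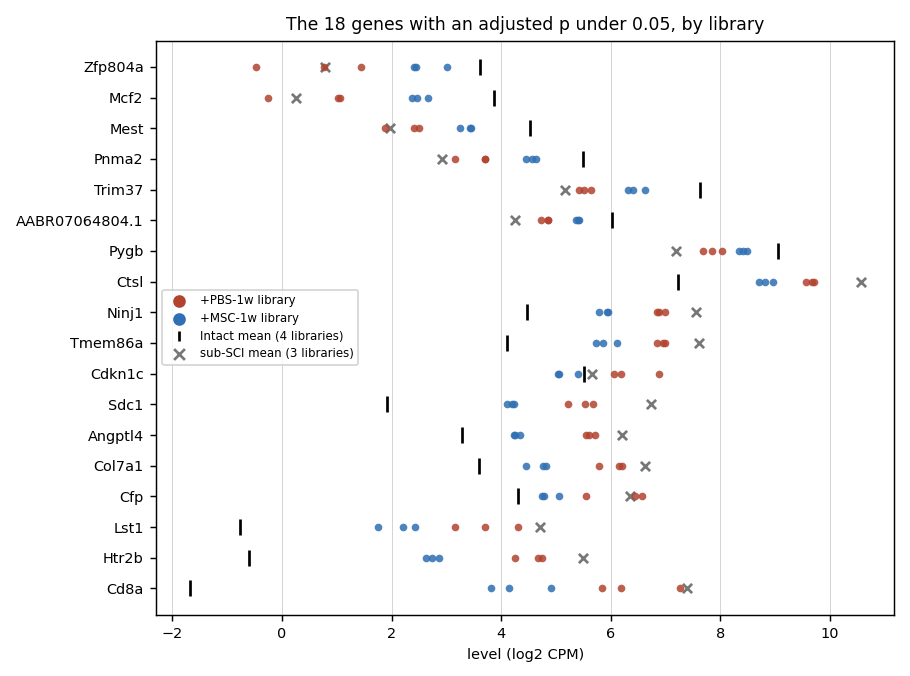
Level of the 18 genes with an adjusted p under 0.05 in each +PBS-1w and +MSC-1w library (log2 CPM), ordered by fold change, with the means of 4 Intact and 3 sub-SCI libraries. In every gene the 3 +MSC-1w points and the 3 +PBS-1w points are apart, and the +MSC-1w points lie from +PBS-1w toward the Intact mean, past it in Cdkn1c.

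How many genes were called depended on single libraries. Without +MSC-1w replicate 1, 2 or 3, edgeR called 1, 0 and 1 genes at an adjusted p under 0.05, and 6 and 9 without +PBS-1w replicate 1 or 3, whereas it called 98 without +PBS-1w replicate 2. All 18 genes kept their sign in each of these fits, Ninj1 stayed under 0.05 in 5 of the 6 and Htr2b in 3. Cfp and Pygb stayed under 0.05 in 2 of the 6, and Ctsl in 1. Without all replicate 1 libraries 18 genes were called, 8 of them the same, and with a term for replicate 1 there were 157, including all 18. On the 6 libraries alone, edgeR called 39 genes, 7 of them among the 18, and 0 with a replicate block. Ctsl, Cfp and Pygb had an adjusted p of 0.0715, 0.0888 and 0.101 by edgeR on the 6 libraries without the block.

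The study called its DEGs with DESeq2. Here DESeq2 on the 6 libraries alone, with the thresholds of a DEG, gave 228 higher (1.27%) and 114 lower genes (0.634%). All 342 had the same sign in edgeR and did not overlap between the groups, and 104 had an adjusted p under 0.1 in edgeR. The 18 genes above also had an adjusted p under 0.05 in DESeq2. The higher gene of smallest p was Scn1a, the sodium channel subunit Nav1.1, with 30, 28.6 and 24.1 CPM in +PBS-1w and 89.5, 92.5 and 85.7 CPM in +MSC-1w (DESeq2 log2 fold change 1.67, edgeR adjusted p = 0.0818). It was followed by Lamp5, Sgpp2, Scn4b and Hapln4, with DESeq2 log2 fold changes of 1.49, 1.64, 1.35 and 1.59. Besides Angptl4, Htr2b and Ninj1, the lower genes of smallest p were Col20a1, a fibril-associated collagen, with 47, 61.9 and 51.3 CPM and 19.4, 19.9 and 21.1 CPM (-1.43), and Cd93, a receptor of endothelial and myeloid cells, with 46.4, 50.2 and 48.3 CPM and 26.7, 24.8 and 25 CPM (-0.94). Their adjusted p in edgeR was 0.0518 and 0.275.

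Gene lists were then read for the direction of their members. Of 630 listed genes in 41 lists, 611 were in the table and 600 were tested. The groups did not overlap in 15.3% of all genes tested with +MSC-1w higher and in 11.6% with +MSC-1w lower, and these shares are the background for the counts that follow. Medians ran from -1.10 for fibroblast and scar matrix genes to 1.39 for motor neuron and cholinergic genes, against -0.00184 for all genes, whose middle 50% lay between -0.23 and 0.28.

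**Figure D3:**
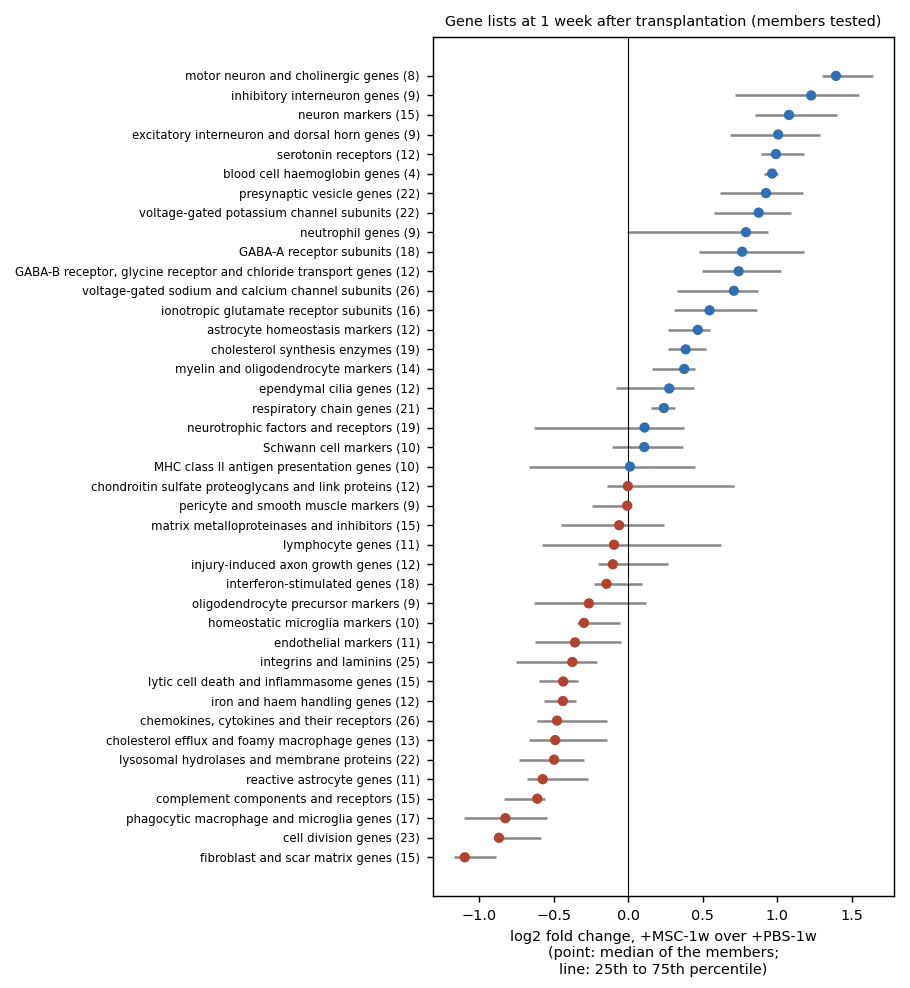
Median log2 fold change of +MSC-1w over +PBS-1w for 41 gene lists (points), with the 25th and 75th percentile of the members (lines) and the number of members tested. Neuronal lists lie toward the top with medians up to 1.39, and the red blood cell list labelled haemoglobin (0.96) and the neutrophil list (0.79) lie among them. Lists of scar, dividing and phagocytic cells lie at the bottom with medians down to -1.10.

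All 17 genes of phagocytic macrophages and microglia had a negative log2 fold change (median -0.82), 12 had an unadjusted p under 0.05, 10 did not overlap, and 1 passed an adjusted p under 0.1. Without +PBS-1w replicate 1 the median was -0.57 with 5 at an unadjusted p under 0.05, and without +PBS-1w replicate 3 16 of the 17 were below 0. The gene that passed was Apoe, the main lipid carrier of the nervous system, with 25966, 20399 and 36702 CPM in +PBS-1w and 17916, 12638 and 14488 CPM in +MSC-1w (log2 fold change -0.88, adjusted p = 0.0912, edgeR quasi-likelihood test, Benjamini-Hochberg adjusted). Cd68, a lysosomal glycoprotein of macrophages, had 629, 318 and 655 CPM and 270.0, 199 and 216 CPM (-1.22), with replicate 2 the lowest control. Aif1, which encodes the microglial protein Iba1, had 220.4, 162 and 165 CPM and 97.7, 97.6 and 118 CPM (-0.80). The markers of homeostatic microglia had a median of -0.30, which was -0.00 without +PBS-1w replicate 1, -0.14 without +PBS-1w replicate 2 and -0.15 without +MSC-1w replicate 1.

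Lysosomal hydrolases and membrane proteins were lower in 21 of 22 members (median -0.50). Of these, 14 had an unadjusted p under 0.05, 17 did not overlap, and 4, all cathepsins, passed an adjusted p under 0.1. Without +PBS-1w replicate 1, 19 members were lower and 9 had an unadjusted p under 0.05. Beside Ctsl the cathepsins were Ctsb, with 6143, 3916 and 4731 CPM in +PBS-1w and 3096, 2630.5 and 2701 CPM in +MSC-1w (-0.81), Ctsa (-0.75) and Ctsc (-0.84). The complement list was lower in all 15 members (median -0.61), 6 of them without overlap. C5ar1, the receptor for the fragment C5a, had 46.5, 30.6 and 32.1 CPM and 14.2, 12.4 and 14.3 CPM (-1.42, adjusted p = 0.0543, edgeR). The chains of the initiator C1q, encoded by C1qa, C1qb and C1qc, had log2 fold changes of -0.87, -0.94 and -1.17, and C1qc went from 1397, 1244 and 751 CPM to 466, 512 and 533 CPM. In all of these genes the groups were apart.

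Genes that foamy macrophages use to export cholesterol were lower in 12 of 13 members (median -0.49), with 8 that did not overlap. Pltp, the phospholipid transfer protein, had 872, 1093 and 1415 CPM in +PBS-1w and 435, 369.8 and 613 CPM in +MSC-1w (-1.25, adjusted p = 0.0642, edgeR), and Abca1, the cholesterol pump, had 864, 672 and 825 CPM and 359, 327 and 527 CPM (-0.96, adjusted p = 0.131). Iron and haem handling genes were below 0 in all 12 members (median -0.44), and 3 did not overlap. Without +PBS-1w replicate 3 the median was -0.29, with 9 of 12 below 0. Hmox1, which encodes the enzyme that degrades haem, was highest in +PBS-1w replicate 1, with 285, 143 and 163 CPM against 76, 112 and 80.3 CPM (-1.14, adjusted p = 0.0677). Among genes of lytic death and the inflammasome, the list that holds Ninj1, 13 of 15 were lower (median -0.44), 9 of them without overlap. Il18, a cytokine released by inflammasomes, had 37.9, 30.6 and 34.8 CPM and 20.6, 25.4 and 27.2 CPM (-0.50). The necroptosis genes Ripk3 and Mlkl had log2 fold changes of -0.66 and -0.80, with an adjusted p of 0.227 and 0.19, so neither passed.

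Cell division genes were lower in all 23 members (median -0.87). Of these, 18 had an unadjusted p under 0.05 and 19 did not overlap, but none passed an adjusted p under 0.1 (edgeR quasi-likelihood test, Benjamini-Hochberg adjusted). Cyclin B1, encoded by Ccnb1, drives entry into mitosis and had 12.6, 7.12 and 8.85 CPM in +PBS-1w and 5.23, 5.21 and 5.24 CPM in +MSC-1w (-0.87, adjusted p = 0.129). The mitotic kinase gene Plk1 had 14.4, 6.75 and 8.53 CPM and 4.87, 6.09 and 4.53 CPM (-0.94), and Mcm5, part of the replicative helicase, had 25.8, 10.6 and 19.5 CPM and 10.1, 9.15 and 9.06 CPM (-0.98). In these genes every +MSC-1w library lay below every +PBS-1w library, and +PBS-1w ran from replicate 2 as the lowest to replicate 1 as the highest. The proliferation marker Mki67 followed the same order, with 64.1, 37.7 and 44.1 CPM and 23.3, 28.2 and 28.5 CPM (-0.87). Without +PBS-1w replicate 1 the median was -0.56, with all 23 members still below 0 and 2 at an unadjusted p under 0.05, and without all replicate 1 libraries it was -0.53, with 5. Without +MSC-1w replicate 1 or 3, 10 members had such a p.

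Fibroblast and scar matrix genes had the lowest median of all lists (-1.10), with all 15 members below 0 and 9 without overlap. Only Postn, periostin, had an unadjusted p under 0.05 (0 to 2 members when single libraries were left out, 0 without +MSC-1w replicate 1), with 111, 124 and 119 CPM in +PBS-1w and 16.5, 67.8 and 33.2 CPM in +MSC-1w (-1.59, adjusted p = 0.175, edgeR). Col1a1, the main chain of collagen I, had 1554, 1280.4 and 2904 CPM and 562, 895 and 818 CPM (-1.33, SE 0.71). Replicate 3 of +PBS-1w was the highest library for Col1a1, and without it the median of the list was -0.49. Endothelial markers had a median of -0.36, -0.16 without +PBS-1w replicate 2 and -0.21 without +MSC-1w replicate 3. Their lowest p belonged to the receptor Tie1, with 109, 78.3 and 126 CPM and 68.5, 58.2 and 63.1 CPM (-0.72, adjusted p = 0.0818, edgeR). Pdgfrb, the receptor of pericytes and scar-forming stromal cells, had 92.7, 78.3 and 223 CPM and 50.7, 65.6 and 67.3 CPM (-1.10, adjusted p = 0.117), while the list of pericyte and smooth muscle markers had a median of -0.01.

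Reactive astrocyte genes were lower in 10 of 11 members (median -0.57, -0.34 without +PBS-1w replicate 3), and 2 had an unadjusted p under 0.05, which 1 or none had when any single library was left out. These were Timp1, an inhibitor of metalloproteinases, with 182, 218 and 181 CPM in +PBS-1w and 88.7, 133 and 145 CPM in +MSC-1w (-0.66), and Cp, ceruloplasmin (-0.67). The single member above 0 was Gfap, the intermediate filament that defines astrocytes (log2 fold change 0.41, adjusted p = 0.511, edgeR). Its groups overlapped, and +PBS-1w replicate 3 was its lowest library. Chemokines, cytokines and their receptors had a median of -0.48 over 26 members, -0.29 without +MSC-1w replicate 1 and -0.32 without +PBS-1w replicate 3, and 5 did not overlap. The chemokine gene Ccl6 had 38.4, 52 and 25.7 CPM and 10.6, 15.6 and 11.5 CPM (-1.62, adjusted p = 0.0775), and Tgfb1, which encodes TGF-beta 1, had 179, 139 and 169 CPM and 98, 123 and 106 CPM (-0.57).

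All 15 neuron markers had a positive log2 fold change (median 1.08), 10 had an unadjusted p under 0.05 and 11 did not overlap, but none passed an adjusted p under 0.1 in edgeR. The neurofilament gene Nefl had 616, 501 and 279 CPM in +PBS-1w and 2084, 1044 and 1422 CPM in +MSC-1w (1.70, adjusted p = 0.118). Map2, a protein of dendrites, had 374, 450.1 and 208 CPM and 629.8, 625 and 569 CPM (0.82, adjusted p = 0.128). Nefl was highest in +MSC-1w replicate 1, while Map2 was even across +MSC-1w, and both were lowest in +PBS-1w replicate 3. Without that library the median of the list was 0.86, with 14 of 15 above 0 and 4 at an unadjusted p under 0.05. Without +MSC-1w replicate 1, 14 were above 0 and 6 had such a p. The median without all replicate 1 libraries was 1.03.

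Subtypes of neurons shared this direction. Motor neuron and cholinergic genes were higher in 8 of 8 members (median 1.39), but only 2 did not overlap and 6 had an unadjusted p under 0.05. The median was 1.02 without +PBS-1w replicate 3 and 1.06 without +MSC-1w replicate 1, each with 3 members at such a p. An adjusted p under 0.1 in edgeR was reached by Slc5a7, the choline transporter, with 30.8, 23.7 and 10.8 CPM in +PBS-1w and 96.8, 44.6 and 65.2 CPM in +MSC-1w (1.66, adjusted p = 0.0741), and by Calca, which encodes the peptide CGRP of motor and sensory neurons, with 15.9, 17.6 and 5.88 CPM and 133, 48.4 and 51.7 CPM (2.56, adjusted p = 0.0677). Replicate 1 of +MSC-1w was the highest for both. Calca stood at 27.5 ± 12.4 CPM in Intact (SD, n = 4), so all 3 +MSC-1w libraries were above the Intact mean. Inhibitory interneuron genes were higher in 9 of 9 members (median 1.23) and 6 did not overlap. Slc6a5, the glycine transporter of inhibitory terminals, had 67.4, 60.8 and 44.1 CPM and 194, 178 and 164 CPM (1.64), and Gad2, an enzyme of GABA synthesis, had 25.6, 30.8 and 13.9 CPM and 61.8, 62 and 40.8 CPM (1.23). Excitatory interneuron and dorsal horn genes were higher in 9 of 9 (median 1.01, 0.54 without +PBS-1w replicate 3 and 0.58 without +MSC-1w replicate 1). Their vesicular transporter Slc17a6 had 31.3, 36.1 and 19.5 CPM and 80.7, 71.3 and 64.7 CPM (1.32).

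Genes of ion channels and of the synapse lay above 0 in nearly all members. Of 26 voltage-gated sodium and calcium channel subunits, 25 were higher (median 0.71, 0.52 without +PBS-1w replicate 3), 16 did not overlap and 5 were under 0.1 in edgeR. An unadjusted p under 0.05 with +MSC-1w higher was reached by 15, and by 7 without that library. Cacng2, which encodes stargazin, had 11.8, 11 and 7.01 CPM in +PBS-1w and 34.6, 22.8 and 26.1 CPM in +MSC-1w (1.48, adjusted p = 0.0671), and Scn4b, a beta subunit of sodium channels, had 86.3, 77.4 and 75.1 CPM and 238, 174 and 206 CPM (1.37, adjusted p = 0.0817). Of 22 potassium channel subunits, 21 were higher (median 0.87, 0.57 without +PBS-1w replicate 3), 18 did not overlap and 4 were under 0.1. Kcna2, the axonal channel Kv1.2, had 159.6, 171 and 144 CPM and 312, 336 and 317 CPM (1.02, adjusted p = 0.0595). Presynaptic vesicle genes were higher in 21 of 22 (median 0.92, 0.63 without +PBS-1w replicate 3), 20 without overlap. Of these genes 17 had an unadjusted p under 0.05, and 7 without that library. The fast calcium sensor Syt2 had 61.2, 41.8 and 28.1 CPM and 150.0, 128 and 109 CPM (1.56, adjusted p = 0.0781), and was alone under 0.1 in its list.

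Receptors for GABA and glycine, the transmitters of inhibition, were above 0 in most members. Of 18 GABA-A receptor subunits 15 were higher (median 0.76) and 9 did not overlap. The alpha subunits Gabra3 and Gabra5 had log2 fold changes of 1.13 and 1.45, with an adjusted p of 0.145 and 0.175 in edgeR. Gabra5 had 8.56, 5.86 and 5.32 CPM in +PBS-1w and 22.9, 17 and 14.2 CPM in +MSC-1w, and Gabrb2, a beta subunit, had 2.08, 2.54 and 1.24 CPM and 3.22, 6.09 and 4.21 CPM (1.20, adjusted p = 0.267). The groups were apart in these 3 genes. The list of GABA-B receptor, glycine receptor and chloride transport genes was higher in 11 of 12 (median 0.74). Its lowest p belonged to the glycine receptor subunit Glra1, with 23.5, 24.1 and 9.89 CPM and 56.4, 60.2 and 44.1 CPM (1.48, adjusted p = 0.077). The chloride exporter KCC2, encoded by Slc12a5 and needed for GABA to inhibit mature neurons, had 86, 71.9 and 44.5 CPM and 203, 164 and 122 CPM (1.27, adjusted p = 0.13). Ionotropic glutamate receptor subunits were higher in 15 of 16 (median 0.55, 0.35 without +PBS-1w replicate 3), with 6 without overlap. Gria4, an AMPA receptor subunit, had 35.8, 38 and 17.7 CPM and 77.4, 60.7 and 59.4 CPM (1.11).

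Serotonin receptors lay on both sides of 0. Htr2b fell, as given above, while the other 11 of 12 tested members were above 0 (median of the list 0.99), 8 of them without overlap. Htr2a, a receptor of motor neurons, had 11, 6.38 and 3.52 CPM in +PBS-1w and 22.2, 13.3 and 14.2 CPM in +MSC-1w (1.24, adjusted p = 0.115, edgeR), and Htr2c had 29, 36.4 and 21.8 CPM and 85.9, 77.4 and 68 CPM (1.41, adjusted p = 0.176). Members also lay on both sides of 0 among the chondroitin sulfate proteoglycans and link proteins, whose median was -0.00 with 6 of 12 higher. The values were 5.53, 4.18 and 4.2 CPM and 12.1, 10.5 and 9.18 CPM for Acan, aggrecan (1.19, adjusted p = 0.077), and 1.52, 2.09 and 2.48 CPM and 7.48, 8.06 and 7.6 CPM for the link protein Hapln1 (1.93, adjusted p = 0.12). Vcan, versican, had 214, 243 and 136 CPM and 94.5, 140.1 and 125 CPM (-0.72, adjusted p = 0.126), and its groups overlapped.

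Lists of glia that support neurons were higher by less. Astrocyte homeostasis markers were higher in 10 of 12 (median 0.47, 0.26 without +PBS-1w replicate 3), with 5 without overlap. The potassium channel gene Kcnj10 had 67.6, 75 and 32.7 CPM in +PBS-1w and 98.5, 102 and 105 CPM in +MSC-1w (0.80), and the water channel gene Aqp4 had 1392, 1828 and 788 CPM and 2115, 2163 and 2098 CPM (0.67). In both, +MSC-1w was even and +PBS-1w replicate 3 was the lowest. Myelin and oligodendrocyte markers were higher in 12 of 14 (median 0.38), but the median was 0.07 without +PBS-1w replicate 3. Their lowest p belonged to Ermn, a cytoskeletal protein of myelinating oligodendrocytes, with 135, 155 and 64.5 CPM and 194, 218 and 229 CPM (0.85, adjusted p = 0.105, edgeR). Cholesterol synthesis enzymes, which supply myelin, were higher in 18 of 19 (median 0.39), with 11 without overlap. Fdps, an enzyme of the mevalonate pathway, had 82.5, 85.7 and 76 CPM and 133, 111 and 109 CPM (0.53). Respiratory chain genes had a median of 0.24, with 18 of 21 higher and 7 without overlap, but the median was 0.08 without +MSC-1w replicate 1. Oligodendrocyte precursor markers had a median of -0.26 (0.06 without +PBS-1w replicate 2 and -0.40 without +PBS-1w replicate 3).

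Several lists were near 0 or divided. Medians were 0.11 for Schwann cell markers, 0.27 for ependymal cilia genes, 0.01 for MHC class II genes, -0.15 for interferon-stimulated genes, -0.10 for lymphocyte genes, -0.06 for matrix metalloproteinases and their inhibitors, 0.11 for neurotrophic factors and their receptors, and -0.10 for injury-induced axon growth genes. Integrins and laminins had -0.38, and -0.19 without +PBS-1w replicate 3. The Schwann cell list shows how a single library moved a median, since it was 0.92 without +PBS-1w replicate 3. When single libraries were left out, the medians of MHC class II, interferon-stimulated and lymphocyte genes ran from -0.53 to 0.48, from -0.31 to 0.20 and from -0.39 to 0.21. Neutrophil genes had a median of 0.79 (6 of 9 higher), with no member at an unadjusted p under 0.05. The list labelled haemoglobin, tested through the red blood cell genes Hba-a2, Hbb, Alas2 and Slc4a1, had 0.96 (4 of 4 higher), also with no such member. The neutrophil median was 0.31 without +PBS-1w replicate 3 and 0.34 without +MSC-1w replicate 3. The red blood cell median was 0.52 without +MSC-1w replicate 1 and 0.61 without +PBS-1w replicate 3. Summed levels of the red blood cell genes ran from 146 to 412 CPM in +PBS-1w and from 244 to 1015 CPM in +MSC-1w. These levels varied within both groups, and their part in the results was not tested.

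The lists were also read against the references. The mean log2 CPM of neuron markers was 7.16, 6.82 and 6.03 in +PBS-1w and 8.22, 7.44 and 7.71 in +MSC-1w, and the groups did not overlap. Intact libraries lay at 8.59 to 8.92 and sub-SCI libraries at 5.03 to 6.67. For phagocytic genes the means were 8.54, 7.74 and 8.33 in +PBS-1w and 7.52, 7.44 and 7.35 in +MSC-1w, with Intact at 3.69 to 4.73 and sub-SCI at 8.36 to 8.71. For cell division genes they were 4.43, 3.65 and 4.07 and 3.29, 3.42 and 3.30, with Intact at 1.69 to 2.63 and sub-SCI at 4.89 to 5.73. In all 3 lists every +MSC-1w library lay between the Intact libraries and the +PBS-1w libraries. For scar genes they were 7.85, 7.64 and 8.90 and 6.60, 7.64 and 7.26, and replicate 2 had the same value in both groups to 2 decimals.

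**Figure D4:**
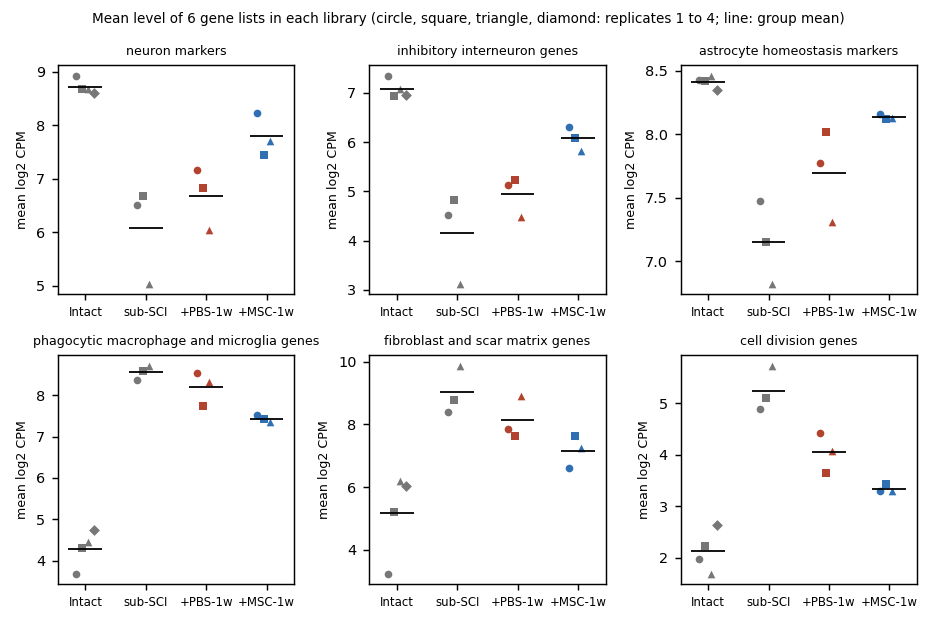
Mean log2 CPM of 6 gene lists in each library of Intact, sub-SCI, +PBS-1w and +MSC-1w (symbols by replicate number, lines at the group means). The +MSC-1w libraries lie between Intact and +PBS-1w, with scar genes of replicate 2 level with the lowest +PBS-1w library, and replicate 3 of +PBS-1w is the lowest for neuron markers (6.03) and the highest for scar genes (8.90).

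The +PBS-1w and +MSC-1w groups were each also compared with Intact. Both comparisons share the Intact libraries, and each shares its +PBS-1w or +MSC-1w libraries with the comparison above, so their values are given side by side only. Against Intact, +PBS-1w had 2436 higher (13.5%) and 2248 lower DEGs (12.5%) by edgeR, and +MSC-1w had 1416 (7.87%) and 474 (2.63%). Among neuron markers 12 of 15 were lower DEGs in +PBS-1w and 2 in +MSC-1w, and among scar genes 12 of 15 and 3 of 15 were higher DEGs. Of the potassium channel subunits 20 of 22 and 11 of 22 were lower DEGs. Among phagocytic genes 16 and 15 of 17 were higher DEGs, with median log2 fold changes of 3.36 and 2.51. Of the cell division genes 19 and 11 of 23 were higher DEGs. Cholesterol synthesis enzymes counted 18 and 16 lower DEGs of 19.

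The same contrast at 2 and 4 wpt shares no library with that at 1 wpt, but 1 model with a shared spread per gene fitted all weeks. Choosing genes by a small p at 1 wpt therefore also favours a small p later, so the counts below are not separate support. At 2 wpt the contrast rests on 2 +PBS libraries, and the study describes 1 of them as an outlier that clustered with +MSC. The 7 genes that rose at 1 wpt were above 0 at both later times, each with an unadjusted p under 0.05. Their median log2 fold change was 1.01, 0.60 and 0.99 at 1, 2 and 4 wpt. Of all genes tested, 5.49% and 11.2% had such a p with +MSC higher at 2 and 4 wpt. The 11 genes that fell were below 0 at both times, 8 of them with an unadjusted p under 0.05 at 2 wpt and 6 at 4 wpt (6.84% and 11.3% of all genes), with medians of -1.34, -0.62 and -0.39. Ninj1 had -0.58 and -0.39 at 2 and 4 wpt, Htr2b -0.83 and -0.84, and Cd8a -0.87 and -0.32. These genes were chosen by their value at 1 wpt, so a smaller value later is no evidence of a difference in itself. Over all genes, edgeR found no difference of the effect between 1 wpt and 2 or 4 wpt at an adjusted p under 0.05 (0%, lowest adjusted p = 1 and 0.491). At an unadjusted p under 0.05, 480 (2.67%) and 702 genes (3.9%) differed, and DESeq2 on all libraries called 1 and 4.

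Cell division genes were the list whose median differed most from 1 wpt to both later times in the negative direction, with -0.87 first and then 0.08 and -0.03. All 23 members were below 0 at 1 wpt, compared with 8 after 2 weeks and 13 after 4 weeks. The difference of the effect was below 0 in 23 of 23 members against 2 wpt and in 22 of 23 against 4 wpt. An unadjusted p under 0.05 for that difference was reached by 6 members against 2 wpt and by 7 against 4 wpt, and none passed adjustment by edgeR. The list was singled out for this difference, so these counts describe it and are no separate support. Without +PBS-1w replicate 1 its median at 1 wpt was -0.56. Members ran from -0.43 to 0.54 at 2 wpt and from -0.37 to 0.79 at 4 wpt. Ccnb1, at the top of the range at 2 wpt, had -0.87, 0.54 and 0.00 at the 3 times. Rrm2, the ribonucleotide reductase subunit that supplies DNA synthesis, was at the top at 4 wpt and had -0.82, 0.40 and 0.79. For comparison, the medians at the 3 times were 1.08, 0.83 and 0.96 for neuron markers, -0.82, -0.52 and -0.52 for phagocytic genes and -1.10, -1.57 and -1.08 for scar genes. Neutrophil genes had medians of 0.79, -2.05 and 0.82 at 1, 2 and 4 wpt, and the median difference of the effect against 2 wpt was 2.51, with 4 of 9 members at an unadjusted p under 0.05 and none past adjustment. The value at 2 wpt rests on 2 +PBS libraries.

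**Figure D5:**
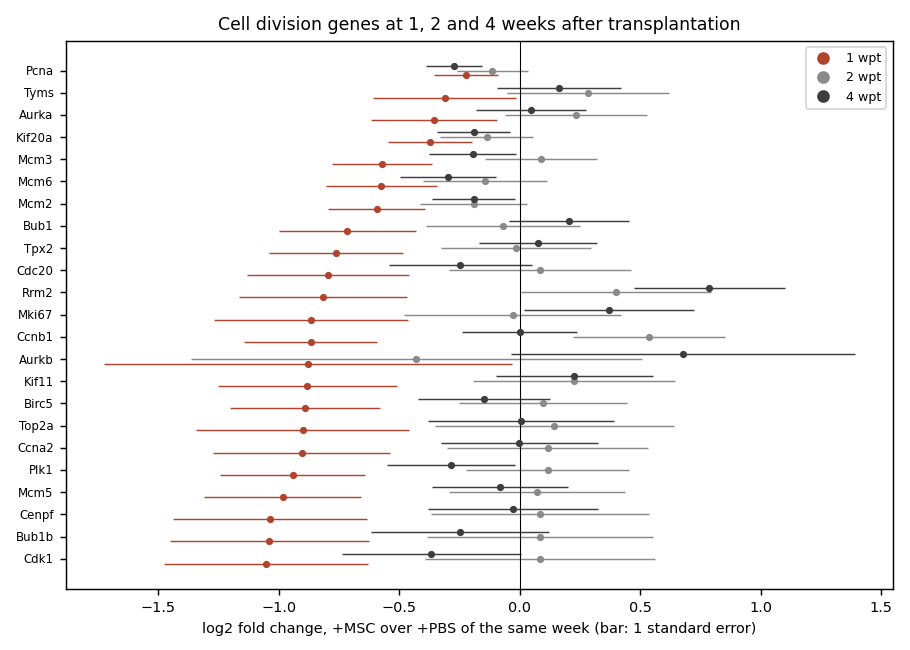
Log2 fold change of +MSC over +PBS of the same week for 23 cell division genes at 1, 2 and 4 wpt (points, with bars of 1 standard error). All 23 points of 1 wpt lie below 0, down to -1.05 for Cdk1, while the points of 2 and 4 wpt lie on both sides of 0.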

How the data were processed

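RNA was sequenced from rat spinal cord segments. The authors used Trim Galore 0.5.0 for trimming and HISAT2 2.1.0 for mapping, first to GRCh38 to discard reads of human origin and then to Rnor6. SAMtools 1.9 selected properly paired reads, and featureCounts 1.6.4 summed them by gene. The values the authors deposited are raw read counts per gene, without normalization. The annotation release and strand setting are not given in the sources used here, so overlapping genes and close paralogs are uncertain. All 26 library files equalled the joint table.

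For the tests, edgeR 4.0.16 in R 4.3.3 was used (filterByExpr, TMM, glmQLFit and glmQLFTest) with 1 model of 26 libraries and 8 groups, with p-values adjusted over 17990 genes. CPM are counts scaled to the TMM-adjusted library size, and log2 CPM used a prior count of 2. An SE is the log2 fold change divided by the square root of F. DESeq2 1.42.0, another scaling, other filters, the replicate block, a replicate 1 term and left-out libraries were alternatives. The tests were run on simulated counts first. Genes, lists and tests were chosen with earlier results of these data known. Named genes were drawn from the DEGs, the 15 higher and 15 lower genes of smallest p with a symbol and a mean of at least 1 CPM, up to 4 members of smallest p in each list, 7 genes of GABA signalling that the study singles out, the 5 of smallest p in each difference between weeks, and the 5 of smallest p each way in DESeq2. AABR07064804.1, Snap25, Gfap, Mki67, Rrm2 and Cdk1 fall outside this rule and were chosen after their values were seen. Values under 1 CPM rest on few reads. Some genes that the rule names are not reported here.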

Additional observations from a re-analysis of the deposited data

How the results depend on the processing

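DESeq2 gave 24 higher and 37 lower DEGs on all 26 libraries and 228 and 114 on the 6 libraries, against 0 and 2 by edgeR. The lower DEGs numbered 0 by edgeR on the 6 libraries, 4 with a replicate block in 26 libraries, 0 with that block in 6, and 0 to 2 when single libraries were left out, with 0 in each case but that without +PBS-1w replicate 3. At an adjusted p under 0.05, the 7 higher and 11 lower genes became 336 and 401 (DESeq2, 26 libraries), 819 and 710 (DESeq2, 6 libraries), 87 and 70 (term for replicate 1), and 30 and 52 with at least 10 counts in every library. The higher genes numbered 26 by edgeR on the 6 libraries and 1 without a filter, and the lower genes 18 with median-of-ratios size factors. Leaving out single libraries gave 0 to 42 higher and 0 to 56 lower genes, lowest without +MSC-1w replicate 2 and highest without +PBS-1w replicate 2. At the same adjusted p under 0.05, the replicate block gave 78 and 52 in 26 libraries and 0 and 0 in 6. An adjusted p under 0.1 in place of 0.05, chosen after seeing the data, gave 189 and 141 without a block. The numbers are not known to pair the samples, since deviations of same-numbered libraries correlated at 0.131, -0.00893 and 0.0756, and replicates 1 and 3 of +MSC-1w, but not replicate 2, correlated best with their own number. DESeq2 on all libraries called 1 and 4 genes in the difference from 2 and 4 wpt, against 0 by edgeR. The cause of these changes was not tested. The p-values of the main edgeR fit use a spread estimated over all 26 libraries, while each group at 1 wpt held 3 libraries. Values near 1 CPM rest on few reads.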

Other observations

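Several genes outside the groups described above were close to the threshold at 1 wpt. Hspa12a and Hspa4l, members of the HSP70 and HSP110 families of chaperones, had log2 fold changes of 0.89 and 1.01 (adjusted p = 0.0518 and 0.0622, edgeR). Hspa12a had 103, 82.7 and 98.6 CPM in +PBS-1w and 211, 154 and 162 CPM in +MSC-1w, and the groups did not overlap. Sh3gl2, which encodes endophilin A1 of synaptic endocytosis, had 44.9, 51.9 and 38.3 CPM and 97.4, 89.4 and 84.8 CPM (1.01, adjusted p = 0.0556).

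Cxcl2, a chemokine that draws neutrophils, had 0.327, 14.3 and 0.48 CPM in +PBS-1w and 0.18, 0.292 and 0.276 CPM in +MSC-1w, so its log2 fold change of -4.32 (adjusted p = 0.0905, edgeR) came with 1 high library. Neutrophil granule genes differed in sign within their list, with -1.15 for Mmp8 and 1.35 for Mpo, and Mpo was highest in +MSC-1w replicate 3 at 26.8 CPM.

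The genes of smallest p for the difference between weeks included MHC class I genes. RT1-M2 had 5.2, 6.08 and 13.6 CPM in +PBS-1w and 0.601, 0.182 and 0.748 CPM in +MSC-1w, and its log2 fold change was -4.01, 3.85 and -0.40 at 1, 2 and 4 wpt. RT1-CE3 had 0.386, 0.709 and 1.16 CPM and 5.02, 7.51 and 3.35 CPM, with 2.83, 0.19 and -2.29. Neither difference passed adjustment, and reads of such close paralogs can be split in counting. Ttyh3, a chloride channel gene, had 217, 210.0 and 216 CPM and 158, 174 and 155 CPM, with -0.40, 0.10 and 0.20.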
